A study of Mus musculus with 6 samples.

Results

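The resistin-like family consists in the mouse of 4 genes, Retn, Retnla, Retnlb and Retnlg, and all their probes on a whole-genome array were followed in mouse colon with and without Islr. The family was chosen by the measured signals of this same comparison of genotypes, for the low signal of Retnlg in knockouts. Its differences between the genotypes are therefore given as a description without a test. The 4 genes, of 23462 genes named on the array, were represented by 5 of 56605 probes: Retn by 2 (A_55_P1984806 and A_55_P2428514), Retnla by A_51_P257951, Retnlb by A_51_P428360 and Retnlg by A_52_P425839. Colon RNA came from 3 control and 3 Islr knockout mice, all male, with 1 array per animal. Islr codes for a leucine-rich repeat protein that stromal cells secrete. According to the sample source, both genotypes had received 3.5% DSS (dextran sulfate sodium, which injures the colonic epithelium) in their water over 5 days and then 1 day of recovery, whereas a separate treatment field states that no treatment was given. Strain, age and the way in which Islr was deleted are not given in the sources used here, and the design text mentions a flow separation without naming a cell fraction. Nothing in the labels says whether the animals shared litters or cages, so the errors given measure the spread between these 6 samples.

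Resistin-like proteins are small, secreted, cysteine-rich proteins. Resistin, the product of Retn, is a hormone made by fat cells in the mouse. RELM-alpha, from Retnla, is made by macrophages and other cells exposed to the type 2 cytokines IL-4 and IL-13, which act through the transcription factor STAT6. RELM-beta, from Retnlb, is secreted by goblet cells of the colon into the mucus and acts on bacteria, and RELM-gamma, from Retnlg, is a product of bone marrow myeloid cells, above all neutrophils. Retnla, Retnlb and Retnlg lie side by side on chromosome 16, and Retn lies alone on chromosome 8.

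The promoter windows of Retnla and Retnlg are shown because the differences of these neighbouring genes between the genotypes had opposite signs. Each window covers 250 bases before to 50 bases after the annotated transcription start, on the plus strand of GRCm38.p6 (RefSeq). Of the 4 genes, 3 had a window in the RefSeq table (Retn, Retnla and Retnlg). Capitals mark matches to a fixed set of motifs, searched on both strands, and a match is no evidence of binding.
Retnla, chr16:48842359-48842658: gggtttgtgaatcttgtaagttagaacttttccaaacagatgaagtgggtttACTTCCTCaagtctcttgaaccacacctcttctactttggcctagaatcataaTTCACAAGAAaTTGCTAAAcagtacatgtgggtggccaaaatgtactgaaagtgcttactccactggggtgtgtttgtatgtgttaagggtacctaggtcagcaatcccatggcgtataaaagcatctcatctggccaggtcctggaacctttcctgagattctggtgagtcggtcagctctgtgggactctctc
Retnlg, chr16:48872358-48872657: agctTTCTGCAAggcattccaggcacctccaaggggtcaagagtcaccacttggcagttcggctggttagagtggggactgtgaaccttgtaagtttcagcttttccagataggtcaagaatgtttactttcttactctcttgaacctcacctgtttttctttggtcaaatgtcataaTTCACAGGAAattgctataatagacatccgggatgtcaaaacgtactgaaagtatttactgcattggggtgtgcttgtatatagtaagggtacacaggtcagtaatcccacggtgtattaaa

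The Retnla and Retnlg windows were close relatives. In the best local alignment 175 of 223 columns were identical (78.5%), and the aligned stretch ran from -245 to -24 relative to the start in Retnla and from -171 to 50 in Retnlg. The longest match of Retn to Retnla in the same procedure was 9 bases. Both windows held the STAT6 letters (TTC, any 4 bases, GAA) once, at -145 in Retnla and at -72 in Retnlg, and these matches were aligned with each other. They differed by A7G, counted from 1 at the first letter of the match, with the Retnla base first. Over all 32841 windows searched, 6.95% held these letters. In Retnla the C/EBP letters TTGCNNAA followed a single base after the STAT6 match, at -134. In Retnlg the only match to these letters lay on the minus strand at -246, outside the aligned stretch, and 10.8% of all windows held them. The PU.1 letters GAGGAAGT were matched in Retnla alone, on the minus strand at -198 (3.2% of all windows). None of the 3 windows held the letters TTCNNNGAA (8.3% of windows), the CDX letters TTTATNG (10.9%) or the strict NF-kB consensus (0.155%). The looser NF-kB letters GGGNNNTCC (17.8%) were matched in Retn alone, where 2 matches on opposite strands overlapped, from -109 and from -108.

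**Figure D1:**
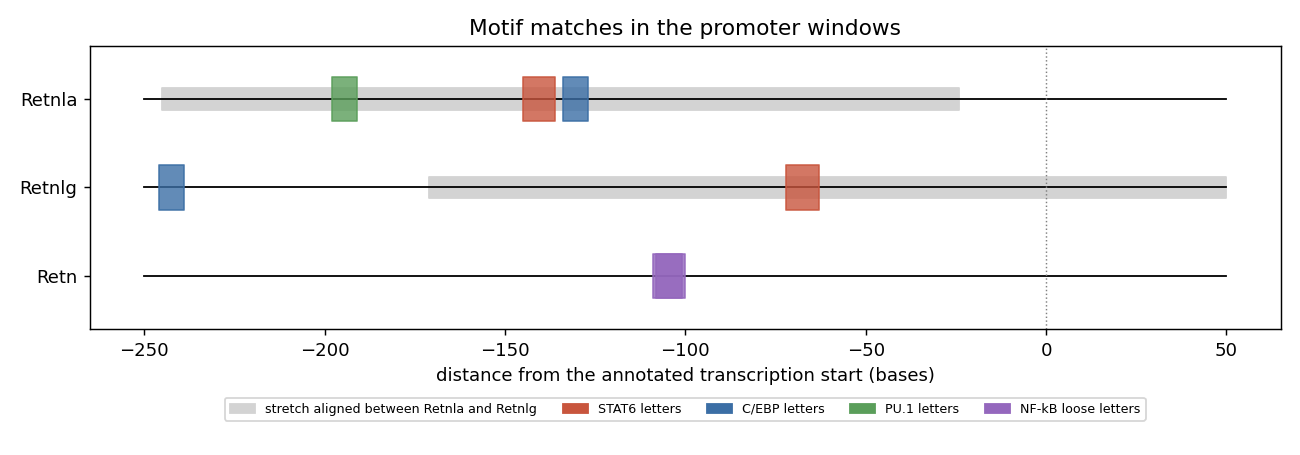
Motif matches (coloured boxes) along the promoter windows of Retnla, Retnlg and Retn, with the distance from the annotated transcription start in bases on the x axis and the stretch aligned between Retnla and Retnlg in grey. The STAT6 match lies inside the aligned stretch in both genes, at -145 in Retnla and at -72 in Retnlg, whereas the C/EBP match of Retnlg lies outside it.

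Signals are given as log2 relative to the 75th percentile of the same array, so that 0 is that percentile. Animals carry numbers that only name them, and their single values include outlier spots. The 75th percentile was 6353 to 7110 intensity units on control arrays and 4910.5 to 5820.0 on knockout arrays, and the share of spots well above background ran from 69.4% to 75.4%. Islr checked the genotype labels: its signal was 1.57, 1.24 and 1.21 in controls and -1.40, -0.93 and -1.31 in knockouts, 5.42-fold lower in the fit (log2 difference -2.44, SE 0.21, limma adjusted p 0.0171). Without knockout 3 it was -2.39 and not called. Control arrays filled 1 slide row and knockout arrays the other, so slide row and genotype cannot be told apart. Colonic epithelium was present in every sample: Epcam, Vil1, Cdx2 and Car1 were well above background on all 6 arrays. Over 35351 tested probes limma called 1403 at a 5% false discovery rate, which is 3.97%, with 548 higher and 855 lower. These totals rested on single animals, with 4 to 1164 higher and 36 to 950 lower when an animal was left out.

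Retnlg, the neutrophil member, was far lower in every knockout than in any control. Its intensity was 18586, 23129 and 14163 in controls 1, 2 and 3 and 370, 909 and 846 in knockouts 1, 2 and 3. On the scaled log2 axis this gave 1.55, 1.70 and 1.11 in controls and -3.73, -2.68 and -2.77 in knockouts. Thus the groups did not overlap, and 3.79 log2 units separated the lowest control from the highest knockout. The spot of control 1 was marked by the scanner software as an outlier and was left out of the fit, in which controls averaged 1.41 ± 0.42 (SD, n = 2) and knockouts -3.06 ± 0.58 (SD, n = 3). Knockout minus control was thus -4.47 log2 units (SE 0.39), a 22.1-fold lower signal (16.9 to 29.0 within 1 SE). All spots of the gene were well above background, so this is a measured level in both genotypes and not a bound.

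**Figure D2:**
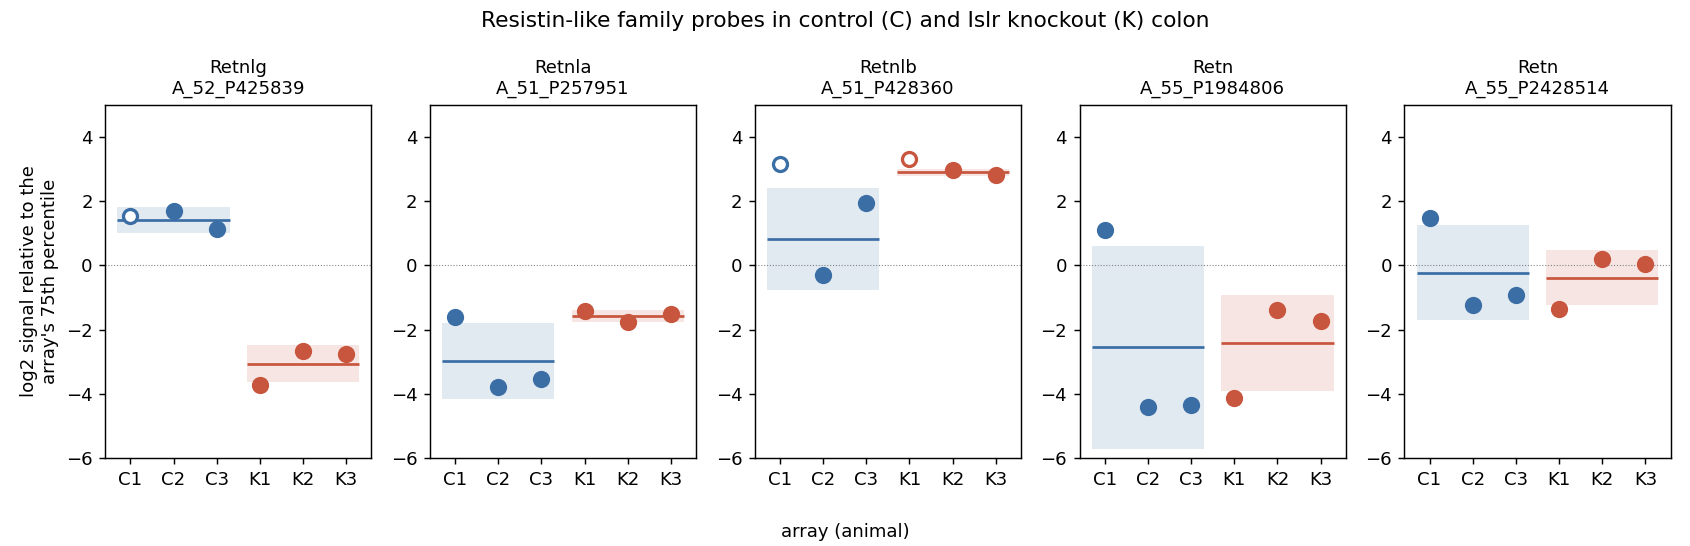
Log2 signal of the 5 family probes relative to the array's 75th percentile (y axis) in controls C1 to C3 and knockouts K1 to K3 (x axis), with the mean (line) and SD (band) of the values used in the fit; open circles are outlier spots left out of it. Retnlg separates the genotypes, whereas in Retnla and Retnlb control 1 lies at the level of the knockouts and in Retn both groups are spread widely.

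Of the 5 family probes 1, that of Retnlg, was called in limma, against 3.97% of all tested probes. Likewise 1 of 5 showed no overlap between the genotypes, against 34.9% of 40172 probes with outlier spots kept. Since this contrast chose the family, nothing is read from either count. Among 11 other fits Retnlg was called in 10, the exception being the fit without knockout 3. Retnla was called with array weights and without control 1. The genes whose values ran most like those of Retnlg over the 6 arrays were Mitf, a transcription factor of pigment and mast cells (Pearson r 1.000), Zfp423, a zinc finger factor (0.999), the long non-coding RNA Mirt2 (0.999), Man2a2, a mannosidase of the Golgi (0.999) and the olfactory receptor gene Olfr1306 (0.999). These are the highest of 16451 coefficients over 6 arrays and are given as a description.

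Most of the tested genes of mature neutrophils were lower in knockouts, as Retnlg was. Of 16 listed genes 13 were tested, and 10 were lower. Of these 13, limma called 6 lower and 0 higher, and here and below such genes are said to have fallen or risen. The median difference was -2.40, against 0.014 over all 16451 named genes tested, of which 3.82% were called, 2.47% lower and 1.35% higher. Mrgpra2a and Mrgpra2b, receptors of neutrophils that respond to cationic peptides, were well above background on no knockout array and were at least 6.07-fold and at least 6.39-fold lower. They entered the fit through the controls alone, where they were high, so their place among the 6 falls rests on that filter. As paralogues they may share signal between their probes. Clec4d, a C-type lectin receptor, fell by 3.52 (SE 0.69, adjusted p 0.047), Mmp9, a gelatinase, by 2.86 (SE 0.56, adjusted p 0.047), Hdc, which makes histamine, by 2.40 (SE 0.40, adjusted p 0.044) and Cxcr2, the receptor for neutrophil-attracting chemokines, by 1.93 (SE 0.22, adjusted p 0.021). Csf3r and Trem1, further receptors of neutrophils, differed by 0.17 (SE 0.14) and 0.18 (SE 0.16) and did not pass. Mmp9 too entered through the controls, with 2 of 3 knockout arrays well above background. Outlier spots kept 2 members out of the fit, and both were higher in every knockout than in any control. Over all 40172 probes with such spots kept, 34.9% showed no overlap between the genotypes. Slfn4, a Schlafen gene of myeloid cells, read -1.55, -2.49 and -0.44 in controls and 0.94, 0.75 and 0.71 in knockouts. Stfa2l1, a stefin-like protease inhibitor, was 1.45 higher on average with those spots kept. The count of 6 was 4 without control 1, 2 without control 2, control 3, knockout 1 or knockout 3, and 5 without knockout 2.

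Genes of neutrophil granule proteins were split. Of 17 listed genes 12 were tested, 7 fell and 2 rose, with a median of -1.51. Over all named genes tested 2.47% were called lower and 1.35% higher. The falls were those of Wfdc21, a protease inhibitor-like protein (-4.25, SE 0.77, adjusted p 0.043), S100a8 and S100a9, the subunits of calprotectin (-3.92 and -3.73), the collagenase Mmp8 (-3.85, SE 0.39, adjusted p 0.017), the chitinase-like Chil3 (-3.40, SE 0.44, adjusted p 0.026), the siderophore-binding Lcn2 (-1.82, SE 0.26, adjusted p 0.030) and the cathelicidin Camp (-1.20, SE 0.17, adjusted p 0.029). The rises were those of Ltf, which encodes lactoferrin and is also made by glandular epithelium (3.66, SE 0.45, adjusted p 0.030), and of the surface protein Cd177 (1.95, SE 0.38, adjusted p 0.047). Myeloperoxidase, Mpo, differed by -0.20 (SE 0.16) and did not pass. Wfdc21 and Mmp8 entered the fit through the controls alone, since 1 knockout array was not well above background, and their differences are less certain for it. Among the untested members, Elane, Ctsg and Ngp, granule genes of neutrophil precursors, were well above background on no array, and Padi4, a histone-modifying enzyme, on 2 control arrays and 0 knockout arrays. Ly6g, the surface marker of mouse neutrophils, was well above background on all 6 arrays but had outlier spots on 3. With these kept it read 2.50, 1.69 and 2.43 in controls and 3.08, 2.82 and 3.06 in knockouts, higher in every knockout and so opposite to most of the list. The count of 9 was 9 without control 1, 0 without control 2, 1 without control 3, 4 without knockout 1, 7 without knockout 2 and 1 without knockout 3.

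The mean level of the tested neutrophil genes was lower in knockouts, as that of Retnlg was, but not every gene followed. Ltf and Cd177 rose, and Mpo, Csf3r and Trem1 differed little. The untested Ly6g, Slfn4 and Stfa2l1 were higher in every knockout than in any control with outlier spots kept. On that basis 34.9% of 40172 probes showed no overlap between the genotypes, in either direction. The mean log2 signal of the 13 mature neutrophil genes was -0.84 to -0.39 in controls and -3.59 to -2.44 in knockouts. That of the 12 granule genes was -1.39 to -1.12 and -3.20 to -2.23. These means and the list medians hold Mrgpra2a, Mrgpra2b, Mmp9, Wfdc21 and Mmp8, which entered through the controls alone. They leave out Ly6g, Slfn4 and Stfa2l1, and this selection favours lower values in knockouts. The medians of -2.40 and -1.51 were -1.93 and -1.20 with outlier spots kept. With no filter on dim probes they were -2.40 and -0.87. Knockout 1, which had the lowest Retnlg signal, also had the lowest mean of both lists. This was not particular to neutrophil genes. The same array was lowest for the macrophage, alternatively activated macrophage, eosinophil and type 2 lists. It was the highest array for the goblet cell list (1.94), the colon epithelium list (3.04) and Retnlb (3.31). It also had the lowest 75th percentile, the lowest share of spots well above background (69.4%) and the most outlier spots (16.0%). The part of neutrophil number in the Retnlg difference was not tested, and in RNA of many cells together fewer cells of a type and less RNA per cell cannot be told apart. These lists were put together with earlier results of these arrays known.

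Retnla, the member known from alternatively activated macrophages, was higher in all knockouts than in controls 2 and 3 but not than in control 1. Its signal was -1.61, -3.78 and -3.55 in controls and -1.42, -1.78 and -1.52 in knockouts. These 3 lay close together and control 1 lay among them, so the groups overlapped. Controls averaged -2.98 ± 1.19 and knockouts -1.57 ± 0.19 (SD, n = 3 each), with a difference of 1.41 (SE 0.55, a 2.65-fold higher signal). Without control 1 the difference was 2.09 (SE 0.19). The genes most like Retnla over the 6 arrays were the carnitine transporter gene Slc22a5 (r 0.998), the cytokine Il7 (0.997), the non-coding Tmem51os1 (0.995), Cracr2b, a regulator of calcium channels (0.995), and Adrb3, the beta-3 adrenergic receptor (0.994). Adrb3 stood at -0.86, -2.92 and -2.69 in controls and at -0.36, -0.75 and -0.40 in knockouts. Here too control 1 lay near the knockouts.

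Among other genes of alternatively activated macrophages none was called higher. Of 14 listed genes 12 were tested, with a median of -0.58. Of these, 8 were lower and 4 higher, limma called 4 lower, and 7 had an unadjusted p under 0.05. Over all named genes tested 2.47% were called lower. Arg1, the arginase that marks this state, fell by 2.72 (SE 0.25, adjusted p 0.016), F13a1, a coagulation factor subunit, by 1.93 (SE 0.34, adjusted p 0.040), Chil4 by 3.03 (SE 0.36, adjusted p 0.023), and Chil3, which the granule list also holds, was the fourth. The Chil4 probe was not well above background on 1 knockout array. It entered the fit through the controls alone, where it was high, and its difference is less certain for it. Arg1 averaged -1.07 ± 0.40 in controls and, over the knockouts, -3.78 ± 0.25 (SD, n = 3 each), so in this gene no control lay at the level of the knockouts. The chemokine Ccl17 differed by 0.61 (SE 0.22), the lectin Mgl2 by 0.03 (SE 0.16) and the signalling inhibitor Socs1 by 0.67 (SE 0.20), and none of the 3 passed. The count of 4 was 4 without control 1, 1 without control 2, control 3 or knockout 1, 3 without knockout 2 and 0 without knockout 3. The median was -0.33 without knockout 1.

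Genes of macrophages and eosinophils, cells that can make RELM-alpha, were followed beside Retnla. Of 14 macrophage genes 12 were tested and 1 fell, the scavenger receptor Marco (-4.19, SE 0.72, adjusted p 0.039), with a median of -0.83 and 11 of 12 lower. Their mean signal was 0.31 to 1.29 in controls and -0.67 to -0.12 in knockouts. C1qa, a complement subunit made by tissue macrophages, differed by -0.75 (SE 0.26) and Csf1r, the growth factor receptor of macrophages, by -0.37 (SE 0.21). Neither passed. Of 8 eosinophil genes 6 were tested, with a median of 0.21 and 1 call, Prg2, the major basic protein (-1.89, SE 0.31, adjusted p 0.035), whereas Siglecf differed by 0.76 (SE 0.62) and did not pass. Epx was well above background on 2 of 3 control and 0 of 3 knockout arrays, and Ccr3 on none. Over all named genes tested 3.82% were called, and nothing is read from a single call per list. An unadjusted p under 0.05 in limma was found for 8 of the 12 macrophage genes and 2 of the 6 eosinophil genes. Without control 2, control 3, knockout 1 or knockout 3 each list had 0 genes called. Of the 6 fits with an animal left out, Marco was called in 1 and Prg2 in 2. Without control 3 the eosinophil median was -0.12.

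Genes of the type 2 cytokine pathway, which acts on Retnla and Retnlb, included 2 that fell. Of 16 listed genes 10 were tested, 7 were lower and 0 rose, with a median of -0.24. Of the 10, 6 had an unadjusted p under 0.05 in limma. Over all named genes tested 2.47% were called lower. Il1rl1, the receptor for IL-33, fell by 3.18 (SE 0.52, adjusted p 0.036) and the epithelial and stromal cytokine Tslp by 2.0 (SE 0.36, adjusted p 0.042). Il33 itself differed by -2.07 (SE 0.66), the receptor chain Il4ra by -0.68 (SE 0.23), Stat6 by -0.17 (SE 0.17), the decoy receptor Il13ra2 by 0.49 (SE 0.16) and the shared receptor chain Il2rg by -0.06 (SE 0.19), and none of these passed. Il5, Il9 and Il13 were well above background on no array, and Il4 on 2 of 3 arrays of each genotype. The count of 2 was 0 without control 2, control 3, knockout 1 or knockout 3, 1 without knockout 2 and 2 without control 1.

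**Figure D3:**
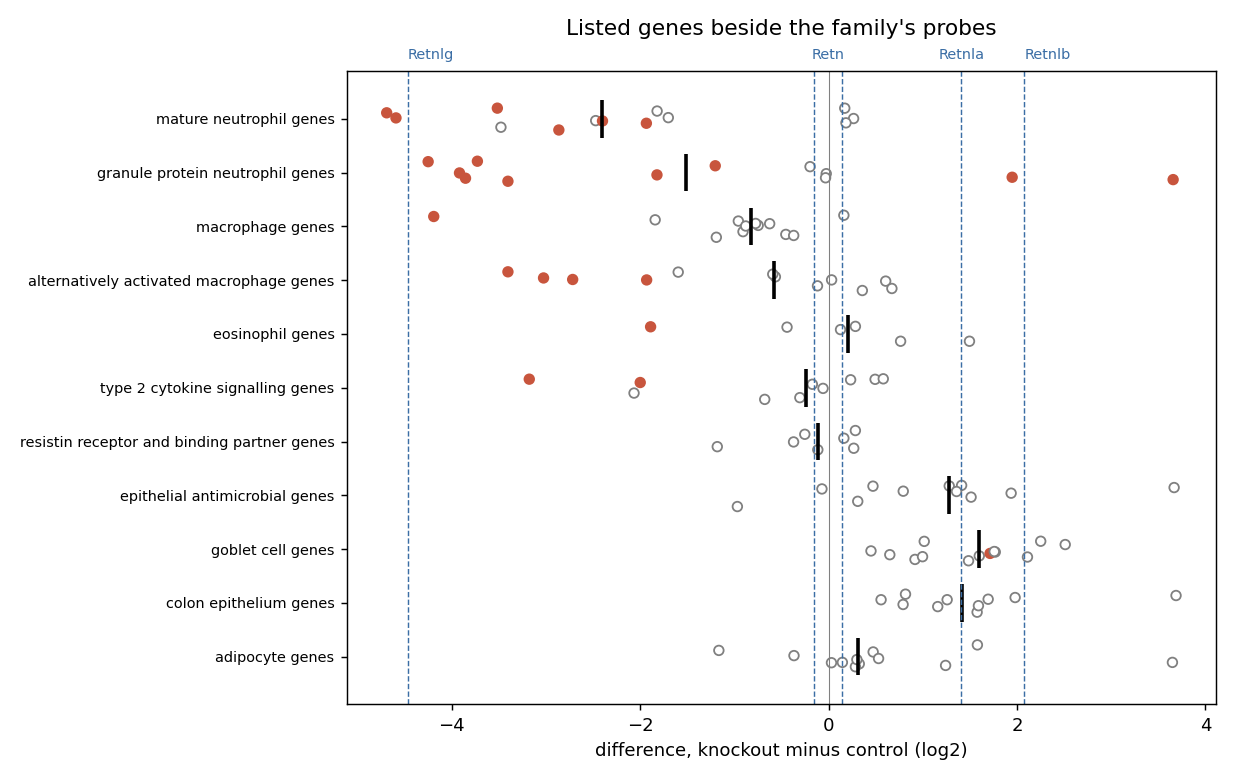
Log2 differences, knockout minus control (x axis), of the tested genes of 11 lists (rows); filled points were called at a 5% false discovery rate in limma, open points were not, black bars are list medians and dashed lines mark the family's probes. Called neutrophil genes are spread widely, with Wfdc21 at -4.25, Camp at -1.20, Cd177 at 1.95 and Ltf at 3.66, beside Retnlg at -4.47. All tested goblet cell and colon epithelium genes lie above 0, the side on which Retnla and Retnlb lie.

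Retnlb, the goblet cell member, was uniformly high in knockouts and uneven in controls. Its signal was 3.15, -0.30 and 1.95 in controls and 3.31, 2.98 and 2.82 in knockouts. Control 2 was the lowest animal, control 1 lay among the knockouts, and the groups overlapped. In intensity units control 2 read 5776 where the other 5 animals read 25185 to 56443. The spots of control 1 and knockout 1 were outlier spots and left out of the fit, which rested on n = 2 in each group, with controls at 0.82 ± 1.59 and knockouts at 2.90 ± 0.11 (SD) and a difference of 2.08 (SE 0.76, a 4.22-fold higher signal). With those spots kept the difference was 1.44 (SE 0.80), and without control 2 as well it was 0.49 (SE 0.39).

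Genes of goblet cells and of the colonic epithelium repeated the profile of Retnlb from animal to animal. The 5 genes most like it were Agr2, a folding enzyme for mucins (r 0.998), Fermt1, an adaptor of epithelial integrins (0.998), Car1, a carbonic anhydrase of colonocytes (0.998), Tff3, the trefoil peptide of goblet cells (0.997), and Capn9, a protease of the gut epithelium (0.993). Agr2 read 2.93, -1.47 and 1.15 in controls and 2.98, 2.47 and 2.47 in knockouts. Of these 5 genes, Agr2, Tff3 and Capn9 are on the goblet cell list and Car1 on the colon epithelium list. On the deviations from the genotype means, which do not use the contrast, the first was Ern2, a stress sensor of mucus-secreting cells (r 0.999), followed by Car1 (0.999).

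Over the whole goblet cell list 13 of 18 genes were tested, and all 13 were higher in knockouts, with differences from 0.45 to 2.51 around a median of 1.60. A single gene rose, Galnt12, a glycosyltransferase of mucin synthesis (1.71, SE 0.28, adjusted p 0.042), and 3 of the 13 had an unadjusted p under 0.05. The Galnt12 fit left out the outlier spot of control 1, which read 1.28, among the knockouts at 1.03, 1.32 and 0.81. With outlier spots kept 0 genes of this list were called. Over all named genes tested 1.35% were called higher, so nothing is read from this single call. The mean signal of the 13 genes was 1.69, -1.40 and 0.24 in controls and 1.94, 1.57 and 1.40 in knockouts, with control 2 lowest as for Retnlb. Muc2, the main mucin of the colon, differed by 1.00 (SE 0.53), the mucus protein Clca1 by 0.92 (SE 0.46) and Tff3 by 0.65 (SE 0.57), and none of the 3 passed. Fcgbp, Spink4, Atoh1, Ang4 and Tpsg1 had too many outlier spots to be tested. The count of 1 was 3 without control 1 and 0 in each of the other 5 fits with an animal left out, and the median was 0.65 at the lowest and 2.42 at the highest of these fits.

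Other epithelial genes were followed in the same way. The colon epithelium list had 10 of 12 genes tested, each of them higher, 0 called in limma (3 at an unadjusted p under 0.05) and the median at 1.42. The chloride exchanger Slc26a3 differed by 3.69 (SE 0.98), the peptide hormone Guca2a by 0.79 (SE 0.46) and the lectin Lgals4 by 0.56 (SE 0.30). Their mean signal was 2.31, -0.06 and 1.57 in controls and 3.04, 2.69 and 2.61 in knockouts. Their median was 0.54 without control 2, and without control 1 there was 1 call. The part of epithelial content in the Retnlb difference was not tested. Of 18 epithelial antimicrobial genes 11 were tested, 9 were higher around a median of 1.28, with 0 calls in limma and 6 at an unadjusted p under 0.05. The lectin Itln1 differed by 3.67 (SE 0.81), the mucus protein Lypd8 by 0.47 (SE 0.30) and Pigr, which carries antibodies across the epithelium, by 0.31 (SE 0.16). The mean signal of the 11 tested antimicrobial genes was 0.47, -0.15 and 0.73 in controls and 1.10, 1.11 and 1.43 in knockouts. In this mean control 1 lay below control 3 and not beside the knockouts. The median was 0.72 without control 1 and 0.86 without control 2, and 1 gene was called without control 1. Reg3g, a bactericidal lectin, read -0.42, 1.36 and 2.25 in controls and -0.36, 2.18 and -0.16 in knockouts with outlier spots kept. It did not follow the profile of Retnlb.

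**Figure D4:**
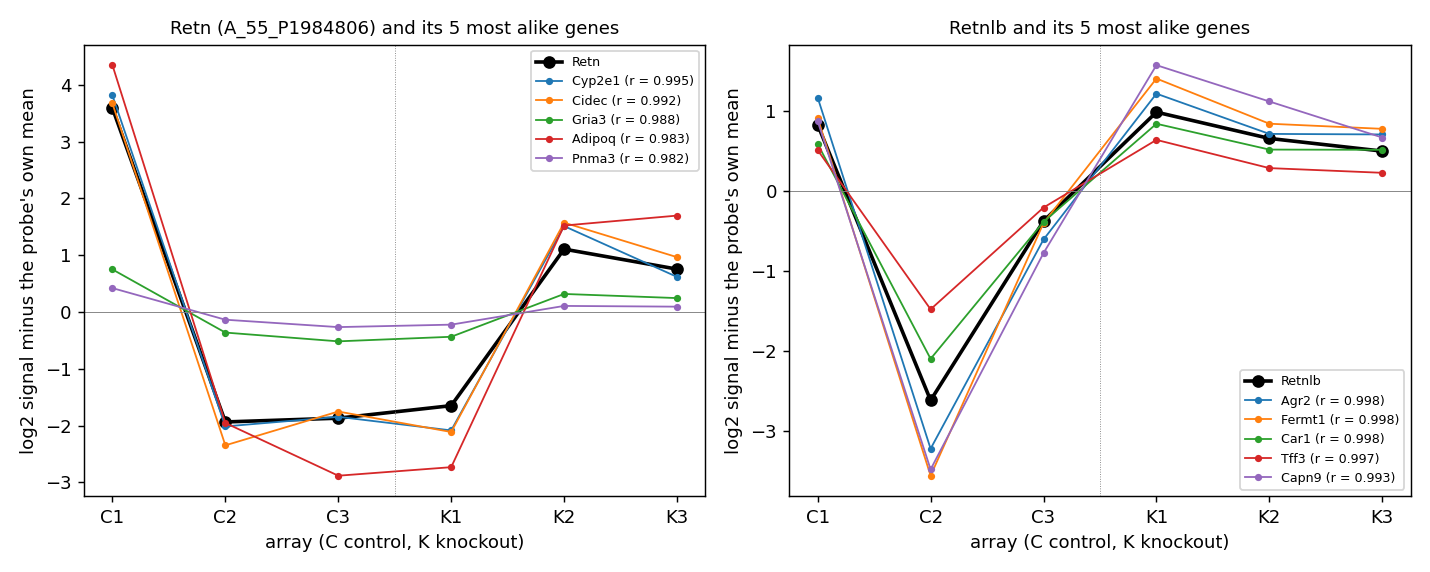
Log2 signal minus each probe's own mean (y axis) over controls C1 to C3 and knockouts K1 to K3 (x axis) for Retn probe A_55_P1984806 (left, black) and Retnlb (right, black), each with the 5 genes of highest Pearson correlation; lines join the values of a gene and imply no order of animals. Retn peaks in control 1 with Adipoq and Cidec, and Retnlb is lowest in control 2 with Agr2 and Car1.

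Retn, the fat cell member, differed more between animals than between genotypes. Probe A_55_P1984806 read 1.10, -4.42 and -4.35 in controls and -4.13, -1.38 and -1.73 in knockouts. Control 1 was highest, knockouts 2 and 3 were intermediate, and controls 2 and 3 lay beside knockout 1 at the bottom. In intensity units this was 13660 in control 1 against 332 and 320 in controls 2 and 3. Probe A_55_P2428514 read 1.46, -1.23 and -0.92 in controls and -1.38, 0.19 and 0.04 in knockouts. It put control 1 highest and knockouts 2 and 3 next, as the first probe did, but spanned 2.84 log2 units where that probe spanned 5.53. Both probes carry the same accession, and why their spans differ was not tested. The first probe averaged -2.56 ± 3.17 in controls and -2.41 ± 1.50 over the knockouts, the second -0.23 ± 1.47 and -0.38 ± 0.86 (SD, n = 3 each). The differences were 0.14 (SE 1.57) and -0.15 (SE 0.78), so a change of several fold in either direction lies within the error. Without control 1 they were 1.97 (SE 0.82) and 0.70 (SE 0.49).

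Several fat cell genes had the same profile. The genes most like the first Retn probe were Cyp2e1, a cytochrome P450 of liver and fat (r 0.995), Cidec, a lipid droplet protein (0.992), the glutamate receptor gene Gria3 (0.988), Adipoq, which encodes adiponectin (0.983), and Pnma3 (0.982). Cyp2e1 and Cidec were also the first 2 for the second probe (0.991 and 0.990), followed by 6430571L13Rik (0.989), Pwwp3b (0.983) and Mrap, a melanocortin receptor accessory protein (0.974). Adipoq read 2.19, -4.11 and -5.04 in controls and -4.88, -0.63 and -0.46 in knockouts, with control 1 highest and knockout 1 beside controls 2 and 3, as for Retn. Cfd, the fat cell protease adipsin, read 3.22, -3.47 and -4.48 in controls and -4.14, 1.79 and 1.38 in knockouts.

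Of 14 adipocyte genes 12 were tested, with 0 calls in limma and 2 at an unadjusted p under 0.05. These 2 had opposite signs, Lipe at -1.16 (SE 0.27) and Pparg at 1.24 (SE 0.46). Lipe read -1.06, -1.60 and -1.78 in controls and -3.03, -2.27 and -2.63 in knockouts, unlike Retn. The median of the 12 genes was 0.31, and it was 0.61 without control 1 and -0.19 without control 3. Their mean signal was 0.34, -2.08 and -2.12 in controls and -1.81, -0.49 and -0.54 in knockouts. Plin1, a defining protein of the fat droplet, was well above background on 2 of 3 arrays of each genotype. Not every listed gene followed: Cebpa spanned -2.40 to -1.90 and Lep -3.46 to -2.73 over the 6 arrays. The brightest tested members, Pnpla2, a triglyceride lipase, and Slc2a4, the insulin-responsive glucose transporter, differed by 0.47 (SE 0.22) and 0.30 (SE 0.20). The part of attached fat tissue in the Retn values was not tested. Leaving out control 1 gave 2 calls on this list.

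Of 7 reported receptors and partners of the family, all tested, limma called 0, and 0 had an unadjusted p under 0.05. Their median was -0.11, and Tlr4, the endotoxin receptor reported to bind resistin, differed by -0.37 (SE 0.18). Cap1, a reported resistin receptor, differed by 0.27 (SE 0.21), Ly96, the partner of Tlr4, by 0.28 (SE 0.21), Cd14 by 0.16 (SE 0.21), Ror1 by -0.11 (SE 0.19), the matrix proteoglycan Dcn by -0.25 (SE 0.20) and the kinase Btk by -1.18 (SE 0.82). The median was 0.066 without control 1, 0.034 without control 2 and 0.053 without knockout 2, so its sign was not settled.

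Set side by side, the 4 genes had different profiles over the 6 animals. Retnlg followed genotype, Retnla and Retnlb put control 1 beside the knockouts and controls 2 and 3 below them, and Retn set control 1 apart from all others. The knockouts were tight for Retnla and Retnlb (SD 0.19 over 3 animals and 0.11 over 2, or 0.25 over 3 with the outlier spot kept) and wide for the first Retn probe (SD 1.50). The sign of the difference held in every setting tried for Retnlg (-4.71 to -4.13), Retnla (1.01 to 2.09) and Retnlb (0.49 to 2.65), and it turned for the Retn probes, which ran from -0.79 to 2.18 and from -0.65 to 0.92. For Retnla and Retnlb that stability of sign goes with overlapping groups, and it is no test.

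**Figure D5:**
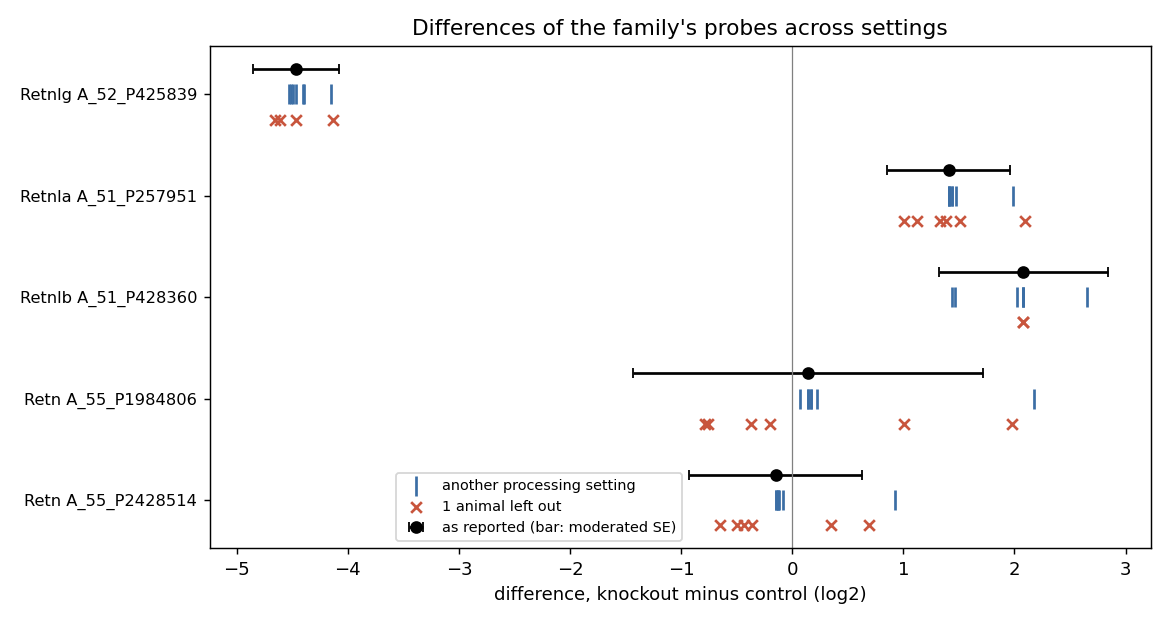
Log2 difference, knockout minus control (x axis), of each family probe (rows) as reported with its moderated SE (black), under 7 other processing settings (blue bars) and with 1 animal left out (crosses). Retnlg stays between -4.66 and -4.13 in these fits, Retnla and Retnlb stay above 0, and both Retn probes fall on either side of 0; Retnlb could be refitted without control 1 or knockout 1 alone, whose spots were already left out.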

How the data were processed

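The authors deposited 1 single-colour Agilent scanner file per animal, whose processed signal is an intensity on a linear scale, background-subtracted in Feature Extraction 11.5.1.1 per the file headers (10.7 per the submitters' processing notes). The labels name Cy3 and a green signal, whereas the files hold the red channel, which was used. The deposited value table also holds intensities and matched the scanner signals of the same samples (log2 correlation of at least 0.999999). Each signal was taken on the log2 scale relative to the 75th percentile of the 59305 non-control spots of its array. Spots with the scanner's outlier marks were treated as missing (3.26% to 16.0% of an array) and none was saturated. The fit took probes that stood well above background on all arrays of either group, with at least 2 usable values per group.

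Differences were fitted with limma 3.58.1 in R 4.3.3 with genotype as its single term, and p-values were adjusted by Benjamini and Hochberg over 35351 probes. The number of arrays limits the precision. In a simulation of 35351 probes with independent noise and planted changes of several fixed sizes, 119 of 200 changed probes were recovered with 6 false calls. Shifts shared by many genes of an animal were not simulated, so these counts do not measure the precision of the real comparison. RefSeq accessions named 59.7% of the probes; the files use build mm9 and no coordinates of probes are given. The tested probe with the highest mean stood for a listed gene. Named genes were the family, Islr, called list members, the 2 brightest tested members of each list, the 5 genes most like each probe, and the neighbours; other list members were chosen after their values were seen. The family and the lists were chosen with earlier results of these data known. The design assumed a mean signal for the normexp alternative; the median signal was used in its place, because the mean is not among the columns used here. A planned comparison of protein sequences was not analysed here.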

Additional observations from a re-analysis of the deposited data

How the results depend on the processing

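No paired analysis was possible because the labels carry no replicate numbers. The planned normexp correction of the mean signal was not run. Normexp on the median signal, and the fits of Retnlb and Retnlg that kept outlier spots and left out 1 animal, were chosen after seeing the data. Of 210 values under other processing, 173 counted as unchanged and the rest follow. The cause of these shifts was not tested. Differences and medians counted as unchanged if they moved by less than the spread between replicates, and counts if they stayed within 1.5 times. The Islr check did so if it kept its call. Calls of the family's probes were no part of this rule, and Retnla was called with array weights though not as reported. Some of the 173 moved by over 1.5 times all the same. With array weights the Retn probes were at 2.18 and 0.92 and the medians at 0.67 (adipocyte), 0.052 (eosinophil), 2.57 (goblet cell) and -0.18 (receptors and partners). Quantile normalization gave 0.23 and -0.080 for the Retn probes and -0.056 for the receptor median, and normexp 0.070 for the first Retn probe. With no filter on dim probes the eosinophil median was 0.100 and the type 2 median -0.12; the latter was also -0.12 with outlier spots kept and -0.089 from the value table. Probes called higher and lower, 548 and 855 as reported, were 1306 and 1252 under normexp, 797 and 1452 under median centring, 764 and 1421 under quantile normalization, 163 and 321 with no filter on dim probes, 4594 and 4698 with array weights and 977 and 1297 from the value table. With array weights the called genes numbered 6 (adipocyte), 7 (alternatively activated macrophage), 5 (colon epithelium), 2 (eosinophil), 6 (antimicrobial), 10 (goblet cell), 5 (macrophage) and 4 (type 2). With no filter on dim probes they were 0 (eosinophil, goblet cell, macrophage and type 2) and 3 (mature neutrophil), with a granule median of -0.87. Under normexp 1 adipocyte, 3 antimicrobial and 2 macrophage genes were called, and the mature neutrophil median was -1.84. Median centring gave 2 antimicrobial and 2 macrophage calls and quantile normalization 1 antimicrobial call. With outlier spots kept there were 2 antimicrobial, 0 goblet cell and 1 type 2 call, and the deposited values gave 1 colon epithelium, 2 antimicrobial, 0 goblet cell and 1 type 2 call.

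With 1 animal left out, calls ranged from 4 to 1164 higher and 36 to 950 lower over all probes. By list they ranged from 0 to 2 (adipocyte), 0 to 4 (alternatively activated macrophage), 0 to 1 (colon epithelium, eosinophil, antimicrobial and macrophage), 0 to 3 (goblet cell), 0 to 9 (granule), 2 to 5 (mature neutrophil) and 0 to 2 (type 2). Medians ranged from -0.86 to -0.33 (alternatively activated macrophage), 0.54 to 1.73 (colon epithelium), 0.72 to 1.28 (antimicrobial), -2.05 to -1.11 (granule) and -0.22 to 0.066 (receptors and partners). The Islr difference ranged from -2.58 to -2.34. Retnlb ranged from 0.49 to 2.21 and Retnlg from -4.71 to -4.13.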

Other observations

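The genes next to the family in the annotation did not share the size of the Retnlg difference. On chromosome 16, Dzip3, a ubiquitin ligase beside Retnlg, differed by 0.37 (SE 0.24, limma adjusted p 0.353) and Trat1, a T cell adaptor on the far side of Retnlb, by 1.11 (SE 0.34, adjusted p 0.103). On chromosome 8, Mcemp1, a membrane protein of mast cells and other myeloid cells, and Stxbp2, a protein of granule secretion, flank Retn; they differed by -0.40 (SE 0.27, adjusted p 0.381) and 0.77 (SE 0.20, adjusted p 0.0764), and Pcp2 beyond Stxbp2 by 0.20 (SE 0.18, adjusted p 0.507). None of these 5 genes passed. Gm8670, Fcor and Gm22576, the other neighbours, had no probe named here.

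On deviations from the genotype means, which leave the contrast out, the genes most like Retnlg were Pknox2 (r 1.000), Rab2b (0.996), Scrn1 (0.996), Prex2 (0.995) and Mageh1 (0.994), none of them on a neutrophil list. For Retnla they were Adrb3 (0.999), the mast cell protease gene Cma1 (0.998), Cask (0.998), Lypd1 (0.998) and Slc22a5 (0.997), and for the second Retn probe Cidec came first (0.999). These are the highest of 16451 coefficients over 6 arrays and carry no test.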
